A study of Homo sapiens with 6 samples.

Results

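The transcripts of 10 human genes that carry out cellular iron uptake and storage were followed in poly(A) RNA: TFRC, SLC11A2, STEAP3, FTH1, FTL, NCOA4, SLC40A1, ACO1, IREB2 and HMOX1. They were chosen by function and matched to the gene symbols of the deposited counts, and all 10 were found among 60609 genes. The libraries came from K562, an established human leukemia line with erythroid and megakaryocytic features. In these cells the endogenous EP400, the ATPase and scaffold subunit of the TIP60 acetyltransferase and remodeling complex, carries a degradation tag. Either full-length EP400 (WT) or EP400 without the SANT and HD segment on which the TRRAP module is built (labelled Delta-TRRAP) was expressed from the AAVS1 safe harbor locus. All 6 libraries, 3 WT and 3 Delta-TRRAP, were made after 24 h with 500 nM dTAGV-1, a degrader that removes the tagged protein. Both lines derive from a single tagged clone, and 1 clone of each complemented line was used. Clone and genotype therefore cannot be told apart, and the p-values measure only the spread between cultures of 1 clone.

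Cells take up iron bound to transferrin through the transferrin receptor, which carries it into endosomes where iron is reduced, released and moved into the cytosol. Iron that is not used is packed into ferritin, a shell of heavy and light subunits, and can be freed again when ferritin is delivered to lysosomes, or leave the cell through ferroportin. Iron regulatory proteins tune this system by binding a stem-loop, the iron-responsive element, in the messenger RNAs. Bound in the 5′ UTR they block translation, and bound in the 3′ UTR of the transferrin receptor mRNA they protect the transcript from decay. Erythroid cells take up far more iron than most cells because they make heme for hemoglobin.

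The iron-responsive elements are shown because they are the regulatory sequences that link these transcripts to cellular iron. GENCODE transcripts (release 44, GRCh38, which is hg38) were searched for CNNNNNCAGTGN, in which the first C is the bulge and CAGTGN the loop of 6 bases. All 5 base pairs above the bulge and at least 3 of the 5 below it were required. Of 19701 canonical protein-coding transcripts, 40 (0.203%) held a match in a UTR, and 4 of these 40 genes are FTH1, FTL, SLC40A1 and TFRC. The elements are written 5′ to 3′ on the transcript strand over 27 bases, with the loop in capitals. Numbers after TFRC give the first base in the transcript.
FTH1, 5′ UTR, chr11:61967575-61967601, minus strand: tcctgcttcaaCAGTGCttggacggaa
FTL, 5′ UTR, chr19:48965336-48965362, plus strand: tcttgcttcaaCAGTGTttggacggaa
SLC40A1, 5′ UTR, chr2:189580662-189580688, minus strand: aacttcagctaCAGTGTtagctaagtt
TFRC 3290, 3′ UTR, chr3:196050980-196051006, minus strand: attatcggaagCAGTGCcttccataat
TFRC 3694, 3′ UTR, chr3:196050576-196050602, minus strand: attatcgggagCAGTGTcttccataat
TFRC 3759, 3′ UTR, chr3:196050511-196050537, minus strand: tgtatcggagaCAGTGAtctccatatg
TFRC 3806, 3′ UTR, chr3:196050464-196050490, minus strand: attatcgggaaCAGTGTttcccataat
The FTH1 and FTL elements were identical at 25 of 27 bases, and the TFRC elements matched each other at 17 to 25 bases. The search found 4 elements in TFRC, and so strict a pattern can miss others. SLC11A2, which is known to carry an element in one of its 3′ ends, had no match to this strict pattern, and the gene count does not separate its isoforms.

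The libraries held 35076835 to 42616061 counts in genes. EP400, the tagged and complemented gene, ranged from 4897 to 5377 normalized counts across the WT libraries and from 4357 to 6833 across the Delta-TRRAP libraries, so the groups overlapped. The count adds the tagged locus and the transgene and does not measure the protein. Mitochondrial genes took 3.18% to 3.71% of counts in the WT libraries, against 5.07% to 6.24% in the Delta-TRRAP libraries. The sample labels call the cell type lymphoblast. Of 12 lymphoid markers, 7 had a mean under 5 normalized counts, among them MS4A1 and DNTT at 0, whereas all 15 erythroid and megakaryocytic markers exceeded this level. The lymphoid markers summed to 813 to 895 normalized counts in the WT libraries, against 1300.0 to 1448 in the Delta-TRRAP libraries. The erythroid and megakaryocytic markers summed to 47048 to 50965 normalized counts in the WT libraries, against 84843 to 90876 in the Delta-TRRAP libraries. These markers did not all move the same way. ALAS2, HBZ and SLC4A1 rose from WT means of 1241, 1439 and 214 to 16645, 10665 and 4318 in Delta-TRRAP. ITGA2B fell from 661 to 89.3 and LMO2 from 5089 to 2312, and the means of GATA1, HBG1 and HBG2 were lower as well. The part of these lists in the iron gene differences was not tested.

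Between the groups, 6 of the 9 iron genes with enough counts to test passed the test (edgeR, adjusted p up to 0.01), 2 higher and 4 lower in Delta-TRRAP. Over all 19114 genes tested the share that passed was 58.3%, with 30.7% higher and 27.6% lower, so the number of changes in the iron genes was close to the background. TFRC and NCOA4 also passed a fold change of 2, a call made for 22.6% of all genes (16.5% higher, 6.08% lower). All 9 genes had a mean normalized count above 1000, and among the 6804 genes at this level 68.0% passed the adjusted p and 6.31% were called. For 6 of the 9 genes WT and Delta-TRRAP did not overlap, against 71.1% of all genes tested (37.4% higher, 33.7% lower). The fold changes ran in both directions, from -1.09 for TFRC to 1.17 for NCOA4 on the log2 scale, with a median of 0.04 against 0.03 for all genes tested. With library size as the only scaling the median of all genes shifted by 0.14, so small shifts depend on the scaling.

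**Figure D1:**
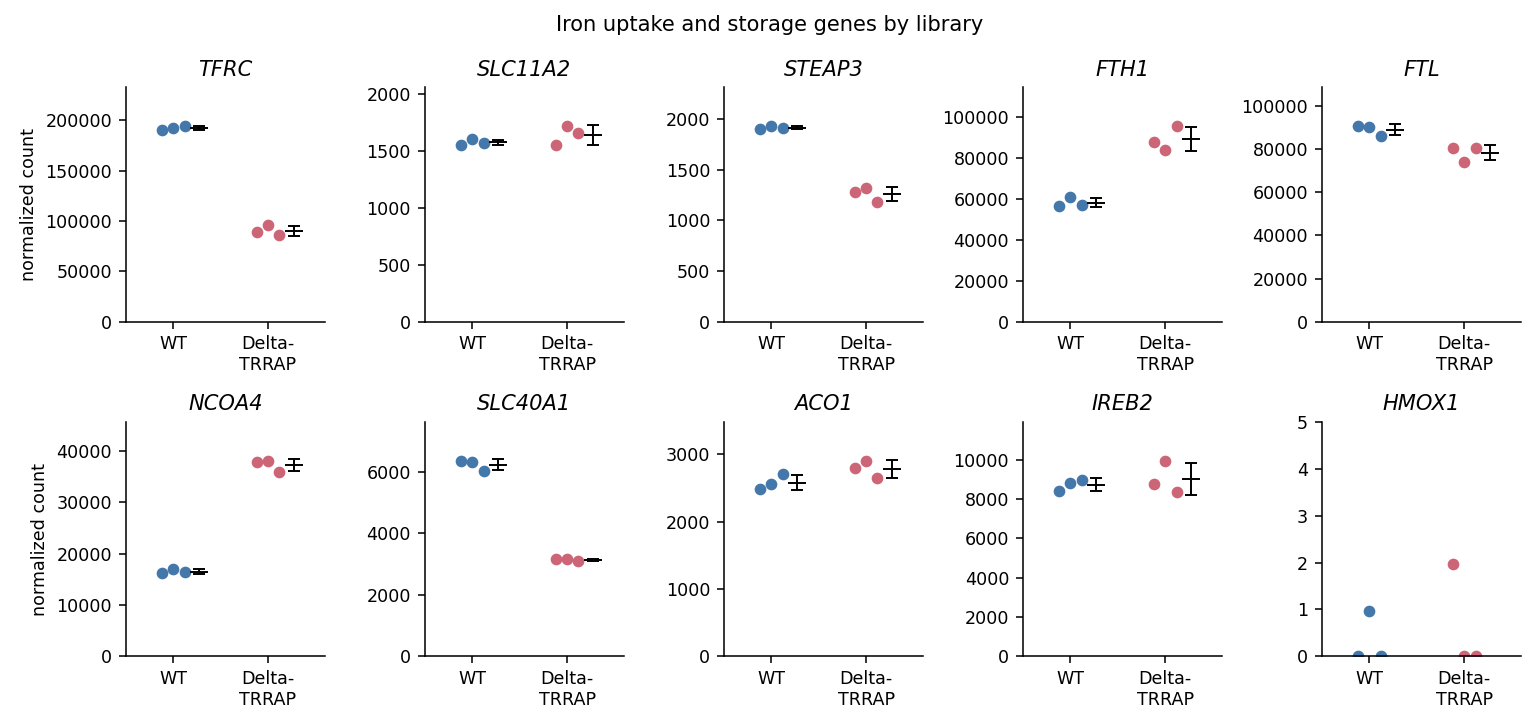
Normalized counts (vertical axes, each starting at 0) of the 10 iron genes in the 3 WT (blue) and 3 Delta-TRRAP (red) libraries, with mean and SD beside the points except for HMOX1. TFRC, STEAP3, FTL and SLC40A1 lie lower in every Delta-TRRAP library, FTH1 and NCOA4 lie higher, SLC11A2, ACO1 and IREB2 overlap, and HMOX1 stays at 0 to 2.

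Of TFRC, STEAP3 and SLC11A2, the uptake genes among the 10, the transferrin receptor showed the largest fall. TFRC (ENSG00000072274.13, chr3:196012511-196082153) had 190032, 192117 and 194133 normalized counts in the WT libraries and 88826, 96018 and 85674 in the Delta-TRRAP libraries. The highest Delta-TRRAP library was near the midpoint between 0 and the WT level. The fitted change was -1.09 ± 0.06 (SE) on the log2 scale (edgeR adjusted p 1.41e-10), a 2.13-fold lower mean. The 2-fold call lay near its threshold: the log2 fold change was -0.99 with upper quartile scaling and -0.96 with library size alone, and the adjusted p was passed under every alternative tried.

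STEAP3, the ferrireductase that reduces iron in the endosome, fell as well. STEAP3 (ENSG00000115107.20, chr2:119223831-119265652) had 1901, 1926 and 1912 normalized counts in WT and 1283, 1316 and 1180.5 in Delta-TRRAP. The WT libraries were tightly grouped and all Delta-TRRAP libraries lay below them. The fitted difference was -0.60 ± 0.05 (SE) on the log2 scale (edgeR adjusted p 1.05e-07). SLC11A2, which encodes DMT1, the transporter that carries the reduced iron into the cytosol, had 1550.3, 1601 and 1569 normalized counts in WT and 1547, 1715 and 1655 in Delta-TRRAP. These groups overlapped. SLC11A2 (ENSG00000110911.16, chr12:50979401-51028566) had a log2 difference of 0.06 with a 95% interval of -0.06 to 0.17 and an edgeR adjusted p of 0.346. With library size alone it was 0.19, with an adjusted p of 0.00421.

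A 60-base stretch of the TFRC promoter is shown because TFRC had the largest difference among the uptake genes TFRC, STEAP3 and SLC11A2 and because MYC and HIF1A, factors the study links to TIP60 or TRRAP, are known to recognize sequences that contain ACGTG. The stretch is from the RefSeq promoter (GRCh38.p14, chr3:196082146-196082205, minus strand, 5′ to 3′), with ACGTG in capitals.
TFRC promoter: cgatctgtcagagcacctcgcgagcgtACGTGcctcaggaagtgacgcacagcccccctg
The motif starts 88 bases before the start that RefSeq gives (196082090). The GENCODE gene span above begins upstream of that start and overlaps the printed stretch. ACGTG on either strand was present in 21.4% of 35116 RefSeq promoters, each 250 bases before to 50 after a gene start. Promoters were listed for 8 of the iron genes, of which FTL and TFRC held ACGTG. The full palindrome CACGTG, which contains ACGTG and occurred in 7.26% of promoters, was in none of them. TGACNNNGC, a core of the element bound by NRF2 and BACH1 (13.3% of promoters), was at a start of NCOA4, and AGATAA, a form of the GATA motif (10.3%), at a start of SLC11A2.

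The ferritin subunits moved in opposite directions. FTH1 (ENSG00000167996.16, chr11:61959718-61967634), the heavy subunit with the ferroxidase center that oxidizes iron for storage, had 56667, 60741 and 56949 normalized counts in WT and 87641, 83888 and 95374 in Delta-TRRAP. Each Delta-TRRAP library lay above each WT library. FTH1 rose by a log2 fold change of 0.61 ± 0.06 (SE), with an edgeR adjusted p of 1.81e-07, a mean 1.53-fold that of WT. FTL (ENSG00000087086.15, chr19:48965309-48966879), the light subunit that promotes formation of the iron core, had 90615, 90273 and 85995 normalized counts in WT and 80527, 74266 and 80614 in Delta-TRRAP. The groups did not overlap, and the gap between them was narrow. FTL fell by 0.18 on the log2 scale (SE 0.05), with an edgeR adjusted p of 0.00717. This call for FTL depended on the processing and on single libraries. The adjusted p was 0.238 with upper quartile scaling, 0.448 with library size alone, 0.109 with a minimum mean count of 50 and 0.0182 with the replicate number as a block. It was 0.0218 without WT replicate 1, 0.0313 without WT replicate 2, 0.0165 without Delta-TRRAP replicate 1 and 0.0519 without Delta-TRRAP replicate 2.

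The balance between the subunits was examined within each library, where scaling plays no part. FTH1 took 38.5%, 40.2% and 39.8% of the ferritin counts in WT and 52.1%, 53.0% and 54.2% in Delta-TRRAP. FTH1 was under 50% of the ferritin counts in every WT library and over 50% in every Delta-TRRAP library. This crossing is one of counts, to which the longer FTH1 transcript (1203 against 871 bases) gives more reads. Per length, FTL stayed above FTH1 in every library, with 2192 to 2380 RPKM against 1793 to 2038 RPKM in Delta-TRRAP. The mean was 39.5% ± 0.918 in WT and 53.1% ± 1.04 in Delta-TRRAP (SD, n = 3 each), a difference of 13.6 percentage points. The exact two-sided permutation p was 0.1, the smallest that 3 against 3 libraries allow. The summed normalized counts of both subunits were 142943 to 151013 in the WT libraries, against 158154 to 175987 in the Delta-TRRAP libraries. TFRC counted 1.27 to 1.36 times the ferritin sum in the WT libraries, against 0.487 to 0.607 times in the Delta-TRRAP libraries. For both of these quantities the exact permutation p was again 0.1. The TFRC ratio is also one of counts, and the TFRC transcript is longer (5012 bases). Per length, TFRC lay below FTH1 and below FTL in every library, with a mean of 985 RPKM in WT and 463 RPKM in Delta-TRRAP.

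**Figure D2:**
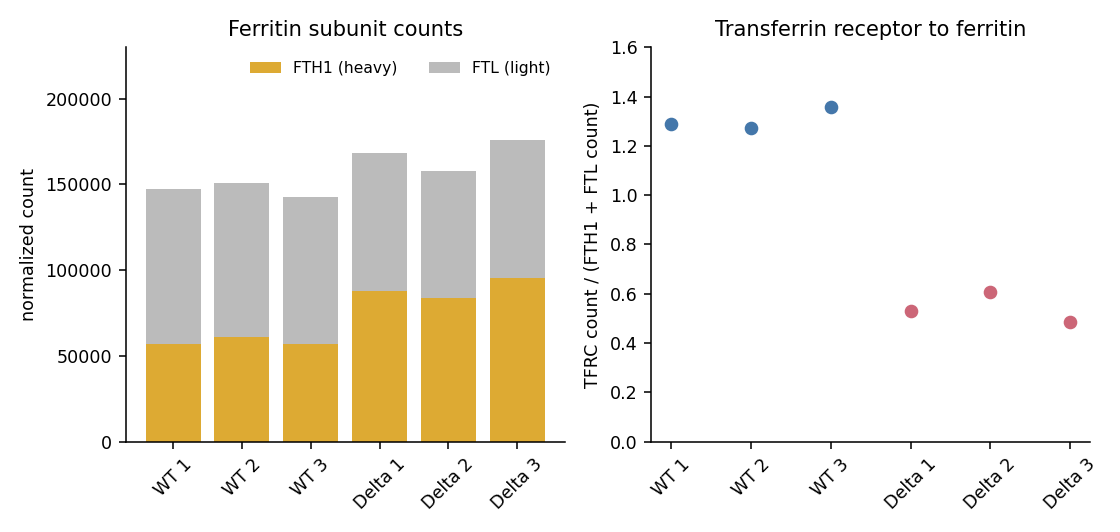
Left, normalized counts of FTH1 (gold) and FTL (grey) stacked for each library, with the axis starting at 0; right, the count of TFRC divided by the summed count of FTH1 and FTL in each library (blue WT, red Delta-TRRAP). The FTH1 part grows from 38.5% to 40.2% of the stack in WT to 52.1% to 54.2% in Delta-TRRAP, and the TFRC ratio drops from at least 1.27 to at most 0.607. Counts in both panels are not adjusted for transcript length.

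Ferritin genes have many processed pseudogenes, and reads that map to several places were discarded, so the FTH1 and FTL counts are uncertain in level. Genes named as FTH1 pseudogenes summed to 476 to 564 normalized counts in the WT libraries, against 678 to 725 in the Delta-TRRAP libraries, 0.76% to 0.929% of the FTH1 count. FTL pseudogenes summed to 373 to 400 in the WT libraries, against 307 to 319 in the Delta-TRRAP libraries, 0.381% to 0.442% of the FTL count. Their sums moved in the direction of the parent gene. Adding them to the parents left the difference in FTH1 share at 13.6 percentage points.

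NCOA4, the cargo receptor that brings ferritin to the lysosome for breakdown, had the largest rise of the 10 genes. NCOA4 (ENSG00000266412.5, chr10:46005088-46030623) had 16199, 17055 and 16353 normalized counts in WT and 37851, 38100.3 and 36035 in Delta-TRRAP. All Delta-TRRAP libraries were more than 2-fold above all WT libraries. On fitting, the change was 1.17 ± 0.05 (SE) on the log2 scale (edgeR adjusted p 2.38e-11), a 2.26-fold higher mean. It remained above 1 on the log2 scale under every alternative tried and reached 1.31 with library size alone.

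SLC40A1 encodes ferroportin, the iron exporter of the plasma membrane. SLC40A1 (ENSG00000138449.10, chr2:189560590-189583758) had 6358, 6324 and 6023 normalized counts in WT and 3167, 3164 and 3100.3 in Delta-TRRAP. The Delta-TRRAP libraries were tightly grouped at a level close to 50% of WT. SLC40A1 fell by 0.99 on the log2 scale (SE 0.05; edgeR adjusted p 1.16e-10) and so missed a fold change of 2 by a small margin. The log2 fold change was -1.02 without WT replicate 3, and -1.01 with no filter on low counts or with TMM factors from all genes with a count, which would make it a call.

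The transcripts of the iron regulatory proteins did not pass the test, and their groups overlapped. ACO1 encodes IRP1, which also works as the cytosolic aconitase when it holds an iron-sulfur cluster, and IREB2 encodes IRP2, which is degraded when iron is plentiful. ACO1 (ENSG00000122729.19, chr9:32384603-32454769) had 2478, 2555 and 2706 normalized counts in WT and 2792, 2901 and 2644 in Delta-TRRAP. Only Delta-TRRAP replicate 3 lay within the WT range. The log2 difference of ACO1 was 0.11 with a 95% interval of -0.01 to 0.22 and an edgeR adjusted p of 0.0931. It passed with upper quartile scaling (0.21, adjusted p 0.00205), with library size alone (0.24, adjusted p 0.000963) and with a minimum mean count of 50 (0.18, adjusted p 0.00608). IREB2 (ENSG00000136381.13, chr15:78437431-78501453) had 8394, 8846 and 9001 normalized counts in WT and 8750.0, 9947 and 8372 in Delta-TRRAP. The Delta-TRRAP libraries spanned the whole WT range. The log2 difference of IREB2 was 0.04 with a 95% interval of -0.09 to 0.18 and an edgeR adjusted p of 0.543. IRP1 and IRP2 act mainly through their protein state, which RNA counts do not show.

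Among the iron genes with an element in the 5′ UTR, FTH1 rose and SLC40A1 fell, and the fall of FTL depended on the processing. An element in this position acts on translation, which RNA counts do not show. The SLC40A1 element was found in 1 annotated protein-coding transcript, and gene counts do not separate transcripts with an element from any without. Of the further iron-handling genes listed below, 3 matched the element pattern in a UTR: ALAS2, CDC14A and TF. CDC14A matched in its 3′ UTR and had a log2 difference of -0.10 (edgeR adjusted p 0.0777). ALAS2, the erythroid enzyme of the first step of heme synthesis, matched in its 5′ UTR. ALAS2 had 1321, 1244 and 1158 normalized counts in WT and 17239, 16368 and 16329 in Delta-TRRAP. The fitted change was 3.75 ± 0.06 (SE) on the log2 scale (edgeR adjusted p 8.71e-16).

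HMOX1, the inducible heme oxygenase that frees iron from heme, was near 0 counts in both groups. HMOX1 (ENSG00000100292.17, chr22:35380361-35394214) had 0, 1 and 0 counts in the WT libraries and 2, 0 and 0 in the Delta-TRRAP libraries, among 122743924 and 111158989 counts. It was not tested, and no fold change is given. A library with a count of 0 allows up to 0.0747 to 0.0855 CPM (counts scaled to the library total), a limit for counting error only. The constitutive heme oxygenase HMOX2, named after its values were seen, was expressed. HMOX2 fell by 0.48 on the log2 scale (SE 0.06), from 1033 ± 29.4 to 742 ± 7.58 normalized counts (SD, n = 3 each), with an edgeR adjusted p of 1.80e-06.

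The transcription factors that set HMOX1 were measured in the same libraries. BACH1, the heme-binding repressor of HMOX1 and ferritin genes, had 3768, 4005 and 4107 normalized counts in WT and 6211, 6805 and 5996 in Delta-TRRAP. BACH1 rose by a log2 fold change of 0.68 ± 0.06 (SE), with an edgeR adjusted p of 5.87e-08. NFE2L2 encodes NRF2, the activator that competes with BACH1. Its log2 difference was 0.04 with a 95% interval of -0.06 to 0.15 and an edgeR adjusted p of 0.45, and it passed with library size alone, at 0.18. KEAP1, which targets NRF2 for degradation, had a log2 difference of -0.05 with a 95% interval of -0.16 to 0.06 and an edgeR adjusted p of 0.386.

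The 10 genes covered a wide range of levels. Levels are given as reads per kilobase of the canonical transcript, scaled to library size (RPKM), so that genes of different length can be compared. In WT the order was FTL (2626 ± 76.0, SD, n = 3), FTH1 (1242 ± 48.6), TFRC (985 ± 10.5), NCOA4 (123 ± 3.39), SLC40A1 (48.1 ± 1.42), IREB2 (35.6 ± 1.28), STEAP3 (11.5 ± 0.0767), SLC11A2 (9.79 ± 0.16), ACO1 (8.91 ± 0.401) and HMOX1. No neighbors in this order overlapped between their WT libraries. In Delta-TRRAP the order was FTL (2316 ± 107), FTH1 (1901 ± 125), TFRC (463 ± 27.2), NCOA4 (277 ± 8.37), IREB2 (36.7 ± 3.34), SLC40A1 (24.3 ± 0.292), SLC11A2 (10.2 ± 0.528), ACO1 (9.60 ± 0.445), STEAP3 (7.60 ± 0.426) and HMOX1. SLC40A1 went below IREB2, STEAP3 went below SLC11A2 and ACO1, and the libraries of SLC11A2 and ACO1 overlapped. With the merged length of all annotated exons in place of the canonical transcript, TFRC stood at 133 and NCOA4 at 241 in Delta-TRRAP, and SLC11A2 stood below ACO1 in both groups. STEAP3 then stayed above SLC11A2 in Delta-TRRAP, at 7.10 against 4.26, so that crossing was not seen. The order of these 3 pairs therefore depends on the length used. STEAP3 went below ACO1 and SLC40A1 below IREB2 with either length.

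To see how genes nearby behaved, each gene was set beside its 20 nearest tested neighbors, 10 on each side, leaving out genes under a mean of 100 normalized counts. For TFRC, on chromosome 3, the median of its neighbors was -0.71 on the log2 scale. TFRC differed from that median by -0.38, and 3 neighbors fell further. Neighbors that passed the adjusted p in either direction numbered 17 of 20 for TFRC and for FTL and 16 for SLC40A1. They numbered 14 for SLC11A2 and NCOA4, 12 for IREB2, 11 for FTH1 and STEAP3, and 9 for ACO1 and HMOX1. The share that passed was 58.3% over all genes tested and 68.0% among those with a mean of at least 1000 normalized counts. For FTL, on chromosome 19, the neighbors had a median of -0.47, below the value of -0.18 for FTL itself. SLC40A1 was lower than all 20 of its neighbors, whose median was -0.15. For NCOA4 the neighbors had a median of -0.05 and a range of -2.83 to 3.15, and 18 of 20 were below it. FTH1 was also above 18 of its 20 neighbors (median -0.13). STEAP3 had neighbors with a median of -0.25, and 6 of 20 fell further. Whether copy number differs between the clones cannot be read from RNA counts, and its part in the values of TFRC and FTL was not tested.

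**Figure D3:**
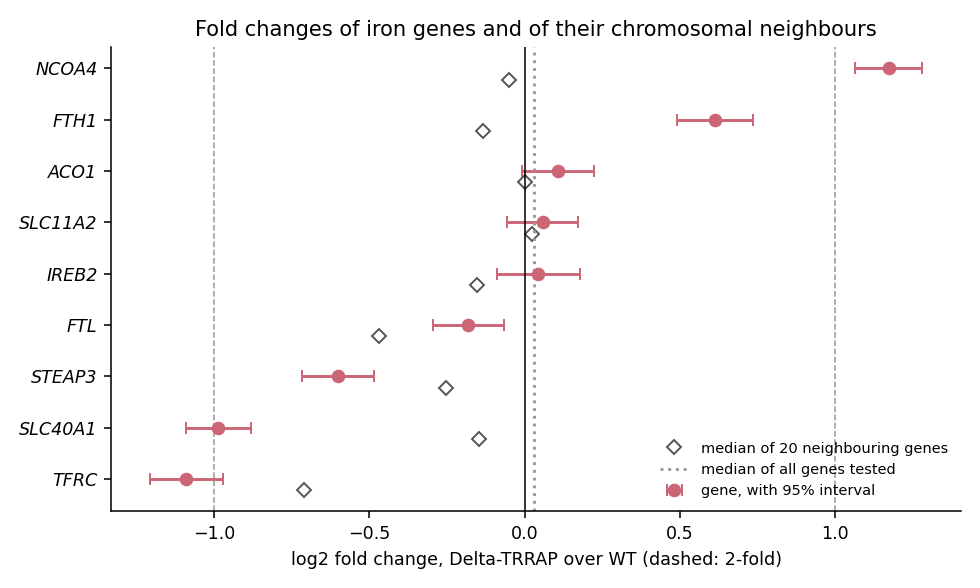
Log2 fold change of Delta-TRRAP over WT (horizontal axis) for the 9 tested iron genes (red points, bars are 95% intervals), the median of each gene's 20 neighbors (open diamonds) and the median of all genes tested (dotted line). TFRC has the lowest neighbor median (-0.71), and SLC40A1, FTH1 and NCOA4 lie well away from theirs.

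Beyond the 10 genes, 94 genes of iron handling were listed in 6 groups, and 88 had enough counts to test. Of these, 28 passed the adjusted p as higher and 26 as lower in Delta-TRRAP, together 61.4%, with a median log2 fold change of 0.05. With the 2-fold threshold, 12 were called higher and 1 lower, together 14.8%. Both shares stand beside 58.3% and 22.6% for all genes tested, of which 16.5% were called higher and 6.08% lower. Among genes with a mean of at least 1000 normalized counts, a level that many but not all listed genes reached, the shares were 68.0% and 6.31%. STEAP2 and HAMP, both called higher, had WT means of 0.659 and 4.02 normalized counts. These lie under the minimum mean of 5, so both were tested only because of their Delta-TRRAP counts. Called genes with a mean under 100 normalized counts numbered 4 in uptake and export, 1 in ferritin handling and 1 in heme breakdown.

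Of 19 genes of uptake, export and systemic control tested, 10 passed as higher and 6 as lower, with a median of 0.44, and 9 were called. Together 84.2% passed and 47.4% were called, beside 58.3% and 22.6% of all genes tested. Of the 9 called, 4 had a mean normalized count under 100. The metal transporters of the ZIP family moved apart. SLC39A8 (ZIP8) had 5937, 5597 and 5567 normalized counts in WT and 15933, 15806 and 16134 in Delta-TRRAP. The model gave a change of 1.49 ± 0.05 (SE) on the log2 scale (edgeR adjusted p 1.46e-12). SLC39A14 (ZIP14) had 4835, 5316 and 5384 normalized counts in WT and 2201, 2157 and 1937 in Delta-TRRAP. The fitted change was -1.30 ± 0.06 (SE) on the log2 scale (edgeR adjusted p 6.48e-11). TFR2, the second transferrin receptor, which senses transferrin-bound iron in erythroid cells and liver, fell from a mean of 3022 ± 141 normalized counts to 1678 ± 91.1 (mean ± SD, 3 libraries each). The estimate was -0.85 ± 0.06 (SE) on the log2 scale (edgeR adjusted p 3.52e-09). HJV, the BMP co-receptor hemojuvelin, rose by 1.90 ± 0.08 (SE) on the log2 scale, from a mean of 222 ± 12.2 normalized counts to 829 ± 73.1 (SD, n = 3; edgeR adjusted p 2.45e-11). ERFE, the erythroid hormone that lowers hepcidin, and TF, transferrin, were singled out after their values were seen. ERFE rose from 152 ± 17.3 to 405 ± 10.4 normalized counts and TF from 192 ± 9.36 to 468 ± 11.2 (SD, n = 3 each), with edgeR adjusted p of 3.03e-09 and 1.26e-09.

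Of 9 tested genes that load ferritin or act in its breakdown, 4 passed as higher and 1 as lower, with a median log2 fold change of 0.21 and 1 call. In this list 55.6% passed and 11.1% were called, beside 58.3% and 22.6% of all genes tested. PCBP1 and PCBP2, chaperones that deliver iron to ferritin, went in opposite directions, with log2 fold changes of -0.20 ± 0.05 and 0.21 ± 0.06 (SE) and adjusted p values from edgeR of 0.00211 and 0.00347. Neither call was stable. PCBP1 did not pass with library size alone (-0.07, adjusted p 0.225), upper quartile scaling (0.0932), a minimum mean count of 50 (0.0289), without WT replicate 2 (0.0153) or without Delta-TRRAP replicate 1 (0.0115). PCBP2 did not pass with the replicate number as a block (0.0104) or without WT replicate 1 (0.025), WT replicate 3 (0.0166), Delta-TRRAP replicate 1 (0.0132) or Delta-TRRAP replicate 3 (0.0118). PIK3C3, the lipid kinase of autophagy, had the smallest adjusted p of the group, at 6.23e-05 by edgeR, with a log2 fold change of 0.30 ± 0.05 (SE). HERC2, the ubiquitin ligase that marks NCOA4 for degradation when iron is high, had 4298, 4339 and 4998 normalized counts in WT and 3945, 5055 and 3186 in Delta-TRRAP. The Delta-TRRAP libraries spread widely around the WT level. Its log2 difference was -0.16 with a 95% interval of -0.41 to 0.09 and an edgeR adjusted p of 0.233, and without Delta-TRRAP replicate 2 it was -0.34 with an adjusted p of 0.000312. It also passed with no filter on low counts, at -0.19 and an adjusted p of 0.00285.

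Of 12 genes of iron sensing and of further mRNAs known to carry the element, 4 passed as higher and 4 as lower, with a median of -0.06. ALAS2 was the only call. The shares were 66.7% passing and 8.33% called, beside 58.3% and 22.6% of all genes tested. FBXL5, the iron-binding subunit of the ligase that degrades IRP2, had a log2 difference of -0.03 with a 95% interval of -0.14 to 0.09 and an edgeR adjusted p of 0.67.

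Of 20 mitochondrial iron and iron-sulfur genes tested, 4 passed as higher and 5 as lower, with a median of 0.02. Together 45% passed and 5% were called, beside 58.3% and 22.6% of all genes tested. The 1 call of this list was SLC25A37, mitoferrin-1, which brings iron into the mitochondria of erythroid cells. SLC25A37 had 11557, 11084 and 11132 normalized counts in WT and 38316, 39263 and 36971 in Delta-TRRAP. The fitted change was 1.76 ± 0.05 (SE) on the log2 scale (edgeR adjusted p 2.48e-13). Of 11 cytosolic iron-sulfur assembly genes, 1 passed as higher and 4 as lower, together 45.5% beside 58.3% of all genes tested. The median was -0.02, with 0 calls by edgeR at 2-fold. CIAO2A, the assembly factor known to act on IRP1, had the smallest adjusted p of these 11 genes. Its log2 fold change was -0.75 ± 0.06 (SE; edgeR adjusted p 5.22e-08). BOLA2 has a near-identical copy and its count is uncertain. Of 17 genes of heme breakdown and of the NRF2 and BACH1 network, 5 passed as higher and 6 as lower, with a median of -0.05 and 1 call. Here 64.7% passed and 5.88% were called, beside the same 58.3% and 22.6%.

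**Figure D4:**
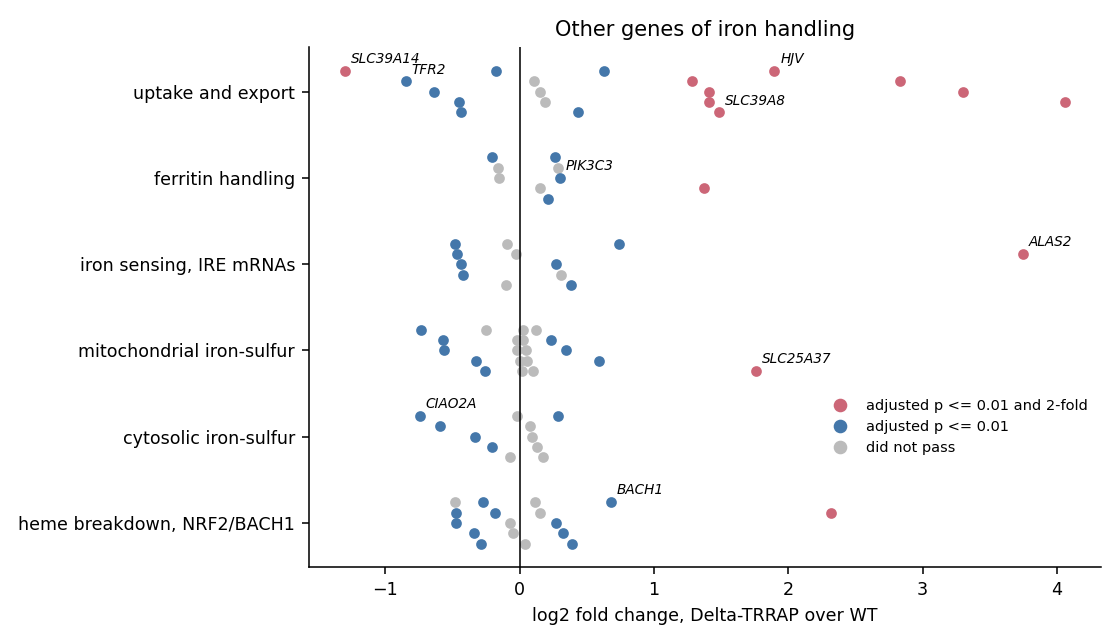
Log2 fold change of Delta-TRRAP over WT (horizontal axis) for the 88 tested genes of 6 iron-handling lists (rows, spread vertically for legibility), colored by whether they passed the adjusted p of 0.01 and 2-fold (red), the adjusted p alone (blue) or neither (grey). Of the 13 red points, 12 lie to the right of 0 and SLC39A14 lies to the left. Over all genes tested, 16.5% were called higher and 6.08% lower.

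ALAS2 and SLC25A37 are erythroid genes, and other erythroid and megakaryocytic markers moved between the groups as well. Of 15 such markers, ALAS2 among them, 8 passed as higher and 4 as lower, together 80.0% beside 58.3% of all genes tested, with a median log2 fold change of 0.52. Those that passed as lower were GATA1, LMO2, HBG1 and ITGA2B. At 2-fold 4 were called higher and 2 lower, together 40.0% beside 22.6%. Of 12 fibroblast markers, 6 had a mean under 5 normalized counts, with PDGFRA and LUM at 0 in all libraries, and the list summed to 36.5 to 58.0 normalized counts in the WT libraries, against 936 to 994 in the Delta-TRRAP libraries. COL1A2 made up most of the latter sum, at 834 to 923. The part of these marker differences in the iron gene values was not tested, and in bulk RNA a change in some cells cannot be told from a change in all.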

How the data were processed

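The authors deposited, for each of 6 poly(A) RNA libraries, unnormalized read counts per gene. Per the study's methods and the labels, reads were aligned to hg38 with STAR, keeping uniquely mapping reads, and reads on the reverse strand were assigned to GENCODE genes by HTSeq 2.0.2 (union mode). A table of normalized counts, in which 3 columns belong to another condition, and a table of the authors' own fold changes and p-values were not used here. Groups and replicate numbers came from the sample titles.

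Counts were tested with edgeR 4.0.16 (R 4.3.3) (quasi-likelihood fit, 1 term for group). A minimum mean of 5 normalized counts was required (19114 of 34998 genes with a count), and TMM factors were computed on these genes. For normalized counts, each count was divided by its effective library size (total times TMM factor), with the geometric mean of the 6 set to 1. A gene passed at 0.01 after Benjamini-Hochberg adjustment across the whole table and was called when it also changed at least 2-fold, the thresholds of the study, which used DESeq2. The test was checked on simulated counts with known changes. Within groups, pairs of libraries differed by 4.93 to 15.5 times the chi-square of counting alone, so none is a repeat deposit. Gene positions and lengths came from GENCODE release 44, with 60340 of 60609 IDs matched, and promoters from RefSeq.

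The iron genes, the lists and the tests were chosen with earlier results of these data known, and the lists were written from general knowledge. Besides the 10 iron genes, the text names TFR2, FBXL5, PCBP1, PCBP2, HERC2, SLC25A37, BACH1, NFE2L2 and KEAP1, and from each list up to 2 called genes per direction with the largest change at a mean count of at least 100, or else the gene with the smallest adjusted p. Other genes appear as markers, as members of a pair, for a match to the element pattern or by choice after their values were seen. Alternatives were other scalings and filters, DESeq2 1.42.0, limma-voom 3.58.1, the replicate number as a block, a 1.5-fold threshold and leaving out each library. TMM factors from all genes with a count were added as an alternative after seeing the data. The replicate numbers did not pair the libraries: deviations of libraries with equal numbers correlated at -0.035 to -0.011 across genes.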

Additional observations from a re-analysis of the deposited data

How the results depend on the processing

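The directions and the adjusted p calls of TFRC, FTH1, SLC40A1, STEAP3 and NCOA4 held under the alternative scalings, filters and tests, the replicate block and each left-out library. FTL was the exception, at a log2 fold change of -0.079 (adjusted p 0.238) with upper quartile scaling, -0.047 (0.448) with library size alone, -0.11 (0.109) with a minimum mean count of 50 and -0.18 (0.0182) with the replicate block, the only iron gene whose call changed with the block. Without single libraries FTL ranged from -0.21 to -0.14, with adjusted p from 0.00496 to 0.0519, and it passed only without WT replicate 3 or Delta-TRRAP replicate 3. Stronger values were 0.19 (adjusted p 0.00421) for SLC11A2 with library size alone and, for ACO1, 0.21 with upper quartile scaling, 0.24 with library size alone and 0.18 (0.00608) with a minimum mean count of 50. The median over the 9 genes, which is that of IREB2 in the reported fit, was 0.04, against 0.14 with upper quartile scaling and 0.18 with library size alone, and it was -0.03 to 0.06 without single libraries. Iron genes called at 2-fold numbered 2, against 1 with either of those scalings and 5 at a fold change of 1.5, and 2 to 3 without single libraries, where 5 to 6 passed the adjusted p. With the replicate block 5 passed the adjusted p and 2 were called. Of the listed pathway genes, 13 were called, against 8 with a minimum mean count of 50, where fewer genes could be tested, and 22 at a fold change of 1.5. Without single libraries 12 to 13 were called and 48 to 54 passed the adjusted p. The difference in FTH1 share was 13.1 to 14.1 percentage points without single libraries. For HMOX1 a difference was not detectable at this depth. The clone and the genotype cannot be told apart in any of these settings.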
